A study of Homo sapiens with 6 samples.

Results

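Polyploid giant cancer cells (PGCCs) derived from SKOV3 were compared with the SKOV3 cells they came from. SKOV3 is an established human ovarian cancer cell line, and here it was grown in RPMI-1640 with 10% fetal bovine serum. The parental library came from untreated cells. The PGCC library came from cells that were given 500 nM paclitaxel for 16 hours and then kept in drug-free medium. The treatment label gives 3 days of recovery for the PGCC library and its title gives day 7. The methods of the study name the same day as the treatment label. Each group holds 1 library, so no value has a replicate error and no test was possible. RNA was measured by sequencing as transcripts per 1000000 (TPM), the abundance of a gene per unit of transcript length as a share of its own library. TPM therefore does not show whether a giant cell holds more RNA than a parental cell. A gene was counted as measured when it reached a TPM of 1 in either SKOV3 library, which left 15270 of the 59008 gene symbols. Of these, 1058 passed only through the PGCC library and 781 only through the parental library. Where a pair of levels is given below, the parental library comes first, the PGCC library follows, and both are in TPM. Just inside the limit stood KLF8, at 0.483 and 1.00, and just outside it AC073575.2, at 0.565 and 0.999. The change of a gene is log2(TPM + 1) in PGCCs minus log2(TPM + 1) in parental cells, and a gene was called at a change of at least 1 in size, which is a 2-fold difference on that scale. The same pair from another ovarian cancer line, Hey, which was cultured in MEM Eagle and given the same paclitaxel treatment with 3 days of recovery, is set beside it where the lines are compared. The SKOV3 daughter library came from 1 clone taken 30 days after paclitaxel.

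Paclitaxel binds microtubules and stabilizes them, so that the mitotic spindle cannot separate the chromosomes normally. Cells that leave mitosis without dividing keep a multiplied genome in enlarged or multiple nuclei. Such giant cells are known to survive drug exposure, to release cytokines and to give rise to small daughter cells. The gene groups below therefore follow the parts of a cell that such a block touches, from the division machinery and the microtubules to secreted factors, matrix, metabolism and protein synthesis.

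Between the SKOV3 libraries, 1700 genes were higher in PGCCs by at least 2-fold, 11.1% of the genes measured, and 896 were lower, 5.87%. The median change was 0.04. The size and direction of the change followed the base composition of the transcripts. Across the 13611 measured genes with a match in GENCODE 44, the Spearman correlation between the change and the GC content of a gene's transcripts was 0.73. These points share the same pair of libraries, so the value describes this pair and is not a test. The 1423 genes with a GC content under 40% had a median change of −0.63, and 19.1% of them were lower in PGCCs while 1.05% were higher. The 2696 genes between 45% and 50% had a median of −0.07. The 1903 genes at 60% and over had a median of 0.93, and 44.1% of them were higher while 0.158% were lower. Genes called higher had a median GC content of 60.9%, and genes called lower had one of 41.3%, against 49.0% over all annotated genes. Correlation with transcript length was weak, at −0.05.

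The stretches below come from genes towards the ends of this range. They are the middle 90 bases of the longest coding exon of the 3 GC-rich genes (60% and over) with the highest change and the 3 AT-rich genes (under 40%) with the lowest, among members of the gene groups described later that reached 10 TPM. The genes were picked after their values were seen. Their classes rest on the GC content of whole transcripts, from which a single stretch can differ. The TOP2A and RPL22L1 stretches are above 40%, whereas the transcripts of these genes are at 38.7% and 39.2%. All were read 5′ to 3′ on the coding strand from GENCODE 44 transcripts on GRCh38, with G and C in capitals and a and t in lower case. FASN makes the fatty acid palmitate, CLIP2 binds microtubule ends, HSPB1 is a small heat shock protein, CDK1 is the kinase that drives entry into mitosis, TOP2A untangles replicated chromosomes, and RPL22L1 is a paralog of a ribosomal protein.
FASN (exon 9 of 43, chr17:82091409-82091498, minus strand, 77.8% GC): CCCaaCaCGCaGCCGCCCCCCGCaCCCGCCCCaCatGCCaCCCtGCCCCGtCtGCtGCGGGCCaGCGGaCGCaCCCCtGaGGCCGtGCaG
CLIP2 (exon 10 of 17, chr7:74376310-74376399, plus strand, 63.3% GC): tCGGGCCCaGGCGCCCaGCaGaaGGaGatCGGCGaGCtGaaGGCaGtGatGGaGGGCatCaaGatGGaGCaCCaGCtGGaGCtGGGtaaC
HSPB1 (exon 1 of 3, chr7:76302850-76302939, plus strand, 80% GC): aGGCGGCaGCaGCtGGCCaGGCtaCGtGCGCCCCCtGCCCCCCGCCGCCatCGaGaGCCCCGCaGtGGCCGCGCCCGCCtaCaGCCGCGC
CDK1 (exon 5 of 8, chr10:60788100-60788189, plus strand, 36.7% GC): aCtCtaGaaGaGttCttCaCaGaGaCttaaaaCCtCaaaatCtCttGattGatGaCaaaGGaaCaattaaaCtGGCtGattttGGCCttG
TOP2A (exon 21 of 35, chr17:40400921-40401010, minus strand, 46.7% GC): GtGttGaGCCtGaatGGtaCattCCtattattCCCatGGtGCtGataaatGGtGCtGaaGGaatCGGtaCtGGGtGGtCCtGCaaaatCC
RPL22L1 (exon 4 of 4, chr3:170866409-170866498, minus strand, 43.3% GC): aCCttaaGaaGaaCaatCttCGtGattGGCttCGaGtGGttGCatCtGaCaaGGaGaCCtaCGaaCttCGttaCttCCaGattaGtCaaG

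Their levels are given as a description, since the way they were picked fixed their direction. FASN stood at 8.92 and 38.3 TPM, CLIP2 at 3.24 and 15.5, and HSPB1 at 55.3 and 217. CDK1 stood at 279 and 75.6, TOP2A at 604 and 177, and RPL22L1 at 48.6 and 13.7.

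The trend was also present in other slices of the pair, though smaller among long non-coding RNAs. The Spearman correlation with GC content was 0.76 over 12173 protein-coding genes, 0.45 over 893 long non-coding RNAs and 0.79 over 2962 genes whose mean TPM reached 50. Across chromosomes the median change of the protein-coding genes ran from −0.38 on chromosome 13, whose genes have a median GC content of 43.1%, to 0.55 on chromosome 19, where it is 59.2%. The Hey pair gave a correlation of −0.06 and class medians between −0.14 and 0.06. With each library set against the mean of the other 5, the SKOV3 PGCC library had a correlation of 0.54 with GC content, the SKOV3 parental library −0.25, and the remaining 4 libraries between −0.15 and −0.04. Whether library preparation or the cells gave this trend was not tested, and with 1 library per group the state of the cells and the library cannot be told apart.

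**Figure D1:**
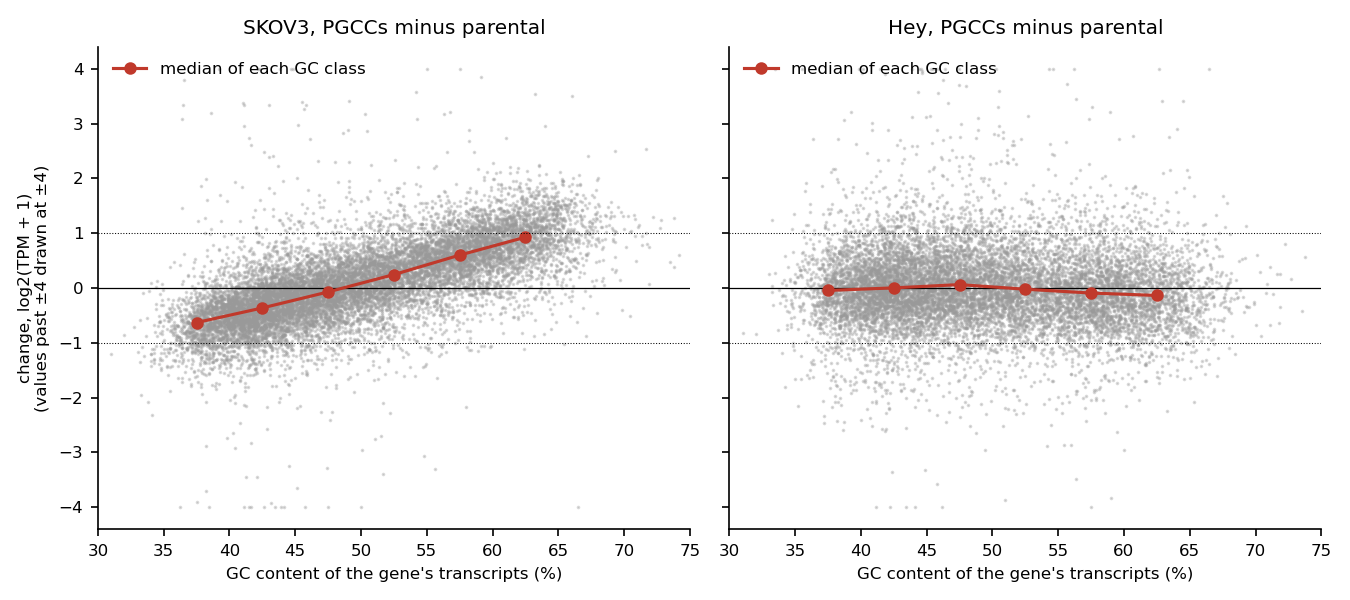
Each grey point is a gene, placed by the GC content of its transcripts (%) and by its change from parental cells to PGCCs in log2(TPM + 1), for SKOV3 on the left and Hey on the right, and the red points join the medians of 6 GC classes, drawn at the class centres with the open classes at the ends. The SKOV3 medians climb from −0.63 to 0.93, whereas the Hey medians stay between −0.14 and 0.06.

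Each SKOV3 change is therefore given on a pair of scales. The measured change comes first, and then, as the adjusted scale, the change after the trends with GC content and transcript length were subtracted by a smooth curve over all annotated genes. After this step 330 of the 13611 genes were higher by at least 2-fold, 2.42%, and 394 were lower, 2.89%, and the correlation with GC content was −0.01. The spread of the change, as the interquartile range over annotated genes, was 0.99 before and 0.55 after the subtraction. Of the 1456 annotated genes called higher as measured, 247 were also called after the subtraction, and of the 686 called lower, 236 were. No gene was called in opposite directions on the scales. Chromosome medians of the protein-coding genes then lay between −0.10 on chromosome 21 and 0.13 on chromosome 6. The subtraction removes any real difference that follows GC content along with an unwanted one, so neither scale is taken as the true one. The count of calls in each list below stands beside the shares of all genes. These are 11.1% higher and 5.87% lower as measured, and 2.42% and 2.89% with the trends removed.

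The labelled cell type was checked with the markers of the epithelium of ovarian carcinoma. All 15 markers were measured, 12 of them reached 1 TPM among parental cells and 15 among PGCCs, and they summed to 2721 and 5269 TPM. Most of the sum came from ERBB2 and the keratins. Low levels were seen for MUC16 (1.15 and 1.59), CLDN4 (1.26 and 3.26) and WT1 (0.545 and 1.23). CLDN3 (0.347 and 1.82) and WFDC2 (0.531 and 3.07) were also near the limit. PAX8, the transcription factor that marks Müllerian epithelium, stood at 65.6 and 136, and the receptor kinase gene ERBB2 at 1127 and 1778. The simple-epithelial keratins KRT8 (411 and 1052), KRT18 (220 and 420), KRT19 (292 and 711) and KRT7 (417 and 930) were higher in PGCCs on the measured scale, 3 of the 4 by more than 2-fold, whereas the adhesion molecule EPCAM was at 68.8 and 43.6. Of the 15 markers, 6 were called higher as measured, set beside 11.1% of all genes, and 0 with the trends removed. Of the 15, 3 passed the limit only through the PGCC library and so had to stand higher there. Markers of other cells were scarce, summing to 14.2 and 14.7 TPM for 11 fibroblast genes, 17.8 and 20.7 for 13 leukocyte genes, 0.544 and 1.42 for 6 endothelial genes, and 0.254 and 1.76 for 5 erythrocyte genes. The leukocyte sum was nearly all CD68, at 17.1 and 20 TPM, a lysosomal gene that cancer cells also use, and 6 of the 13 leukocyte genes were listed at 0 in parental cells and 7 in PGCCs. In a bulk library, fewer cells of a type and less RNA per cell cannot be told apart, here and in every group that follows. Mitochondrially encoded genes took 9.17% of the summed TPM in parental cells and 7.37% in PGCCs, and the summed TPM of the 6 libraries lay between 911825 and 920497.

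To find genes whose difference did not rest on the choice of scale, protein-coding genes that reached 10 TPM were ranked by the smaller of their sizes on both scales. In all, 69 genes were at least 2-fold higher and 89 at least 2-fold lower on both scales, and the 15 furthest in each direction are described. CCN1 (chr1:85580761-85584589 on GRCh38), a secreted matricellular protein that is switched on by growth factors and by the coactivator YAP, had the largest rise of them. It was at 3.45 and 46.7 TPM, a change of 3.42 as measured and 3.41 with the trends removed. The daughter clone had 49.9, close to the PGCC level. UMPS, which carries out the last steps of uridine nucleotide synthesis, was at 3.10 and 19.4 (2.31 and 2.45 on the measured and adjusted scales). SLC2A1, the glucose transporter GLUT1, was at 7.98 and 48.9 (2.47 and 1.95), and at 3.74 in the daughter clone. H2BC12, a histone H2B gene, was at 8.07 and 57.1 (2.68 and 2.0). CDC42EP2, an effector of the GTPase CDC42, was at 2.03 and 19.3 (2.74 and 1.90), and NABP1, which binds single-stranded DNA, was at 3.83 and 14.7 (1.70 and 2.27). The ceramide synthase gene CERS5 stood at 6.99 and 24.3, PLAC8 at 32.7 and 101.6, and the carboxypeptidase gene CPA4 at 5.64 and 18.3. PLAC8 and CPA4 were higher still in the daughter clone, at 371 and 42.3.

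The other 6 genes in the upper set share sequence with neighbours or copies, so the split of reads between them is uncertain. SNURF (1.17 and 14.52) lies on the same transcript as SNRPN. ZNF559-ZNF177 (1.53 and 11.5), BCL2L2-PABPN1 (1.80 and 12.1) and TGIF2-RAB5IF (3.33 and 13.8) are read-through genes that span neighbouring genes. SPANXA2 (19.2 and 64.4) and NPIPB13 (3.20 and 11.8) belong to families of near-identical copies.

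Among the genes that were lower, SIK1 (chr21:43414483-43427131 on GRCh38), a kinase of the AMPK family, was at 25 and 1.65 TPM, a change of −3.30 as measured and −3.78 with the trends removed. CLHC1 was at 93.5 and 6.27 (−3.70 and −3.02), C18orf32 at 46.0 and 5.65 (−2.82 and −2.46), and SMIM11A, which has a near-identical copy, at 46.8 and 3.92. AVIL, a gelsolin-like actin-binding protein, was at 10.4 and 0.476, and PRRX1, a homeobox factor of mesenchymal cells, at 10.0 and 1.41. STK17A, a kinase linked to apoptosis, was at 19.5 and 3.57. MARCKS, which ties actin to the membrane under control of protein kinase C, was at 68.6 and 16.4 (−2.0 and −1.77), and NREP at 102 and 23.3. HES1, the repressor that Notch switches on, was at 179 and 55.1 (−1.69 and −1.81). GALNT1, which starts mucin-type O-glycosylation, was at 90.6 and 20.5, POLA2, a subunit of DNA polymerase alpha, at 66.2 and 21.8, and EIF3L, a subunit of the translation initiation factor eIF3, at 99.8 and 28.4. SPOCK1, a matrix proteoglycan, was at 16.9 and 5.21, and ARL6IP1, a membrane protein of the endoplasmic reticulum, at 734 and 214. In the daughter clone SMIM11A (46.2) and STK17A (18.1) stood near the parental level, whereas SIK1 (0.414), PRRX1 (0.330) and NREP (18.2) stood below the PGCC level.

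**Figure D2:**
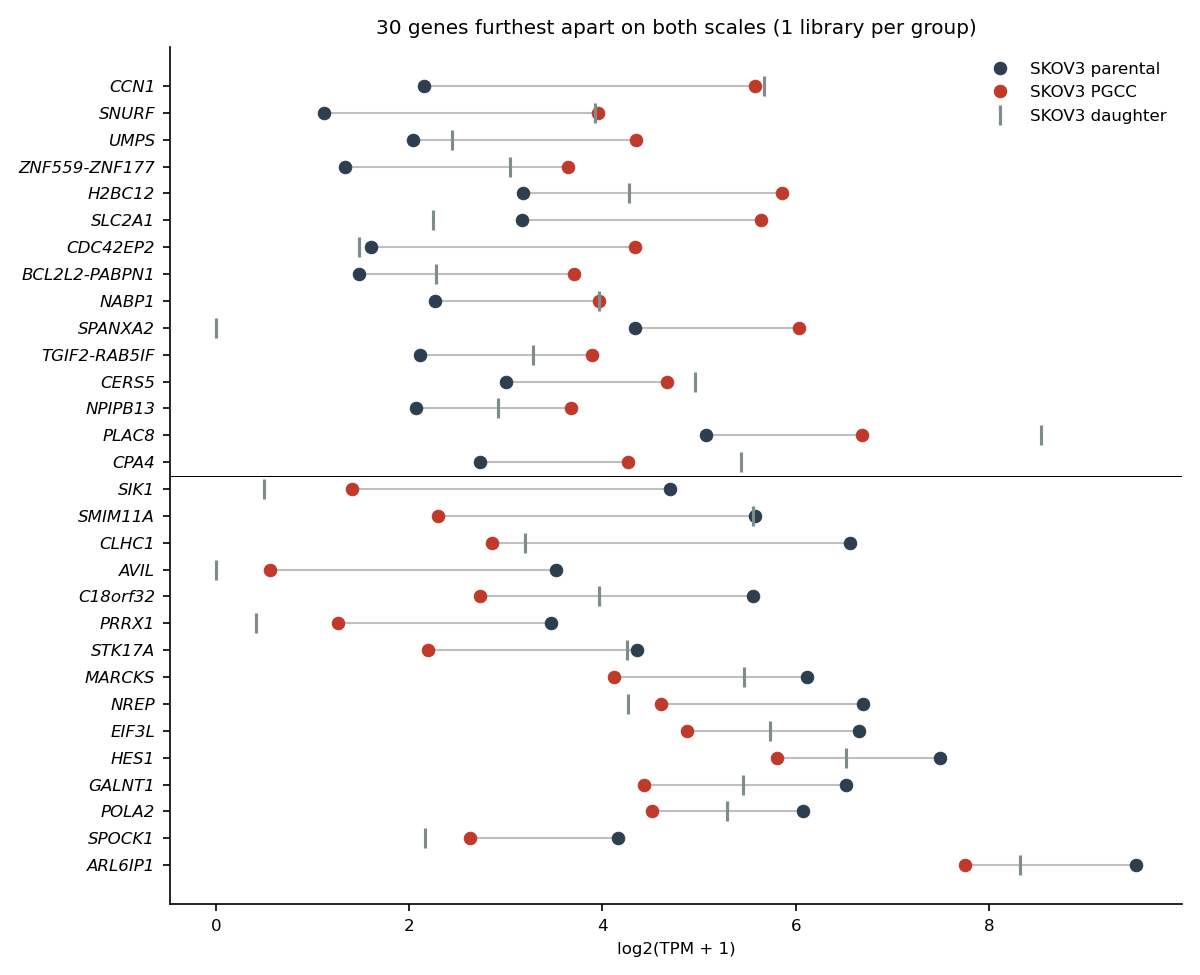
Levels of the 30 genes as log2(TPM + 1), with 1 point per library for SKOV3 parental cells (dark), PGCCs (red) and the daughter clone (grey bar), the 15 genes higher in PGCCs above the line and the 15 lower below it. CCN1 spans the widest gap of the upper set, from a TPM of 3.45 to 46.7, and the daughter clone's bar lies at the PGCC point for some genes (CCN1, NABP1) and at the parental point for others (SMIM11A, CDC42EP2).

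Genes of cell division were lower in PGCCs as a group. Joined and counted once, 8 lists covering DNA replication, cyclins, the spindle checkpoint, kinetochores, mitotic kinesins and cytokinesis held 192 genes, of which 189 were measured. As measured, 45 of them were called lower (23.8%, against 5.87% of all genes) and 4 higher, with a median change of −0.62. With the trends removed, 10 were called lower (5.29%, against 2.89%) and 0 higher, with a median of −0.42. In all, 78.3% of the genes were below 0 as measured and 88.9% were with the trends removed, against 47.7% and 48.7% of all genes. The median GC content of these genes was 45.4%, below that of all genes, and they summed to 22155 and 14956 TPM. On the adjusted scale most of the genes stood lower, with few of them past 2-fold.

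Within the S-phase list, 12 of 43 genes were called lower as measured and 3 with the trends removed. RRM2, the small subunit of ribonucleotide reductase, which supplies deoxynucleotides, was the lowest on both scales, at 168 and 56.0 TPM (−1.57 and −1.36). TYMS, which makes thymidylate, was at 419 and 224 (−0.90 and −1.09), and CDC45, part of the replicative helicase, at 47.6 and 25.4 (−0.88 and −1.04), so that both passed 2-fold on the adjusted scale only. PCNA, the sliding clamp of DNA polymerase, was at 359 and 179 (−1.0 and −0.74). CCNE2, a cyclin of S-phase entry, was at 39.4 and 13.5 (−1.48 and −0.82). In the list of licensing factors, 1 of 24 genes was called lower and 1 higher, and MCM3, a subunit of the helicase loaded before replication, was at 130 and 133. The licensing factor gene CDT1 was at 6.57 and 16.8, a change of 1.24 as measured and 0.24 with the trends removed.

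Within the G2/M list, 19 of 54 genes were called lower as measured and 3 with the trends removed, and none was called higher on either scale. CDK1 changed by −1.87 and −1.02, TOP2A by −1.77 and −1.12, and CKS1B, a partner of the cyclin-dependent kinases, went from 477 to 192 (−1.31 and −1.10). Other low members on the measured scale were TTK, a spindle checkpoint kinase (119 and 42.3, −1.47 and −0.81), HMMR (84.2 and 29.7), KIF11, the kinesin that pushes spindle poles apart (70.0 and 25.6, −1.42 and −0.89), and ANLN, the scaffold of the cytokinetic ring (412 and 156, −1.40 and −0.88). The mitotic cyclin gene CCNB1 was at 623 and 388 (−0.68 and −0.43), and CCNA2 was at 128 and 48.4 (−1.39 and −0.99). CDC20, which activates the anaphase-promoting complex, was not lower, at 329 and 476 (0.53 and −0.04).

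Kinetochore genes had the largest share of calls among the 8 lists, with 11 of 25 measured genes lower as measured and 3 with the trends removed. The kinetochore joins the centromere to spindle microtubules. SPC25, a subunit of the NDC80 complex that grips the microtubule, was at 109 and 27.7 (−1.95 and −1.40), and its partner gene NDC80 at 188 and 71.9 (−1.37 and −0.80). CENPH was at 118 and 34.7 (−1.73 and −1.24), and CENPP at 18.6 and 7.35 (−1.23 and −1.32), both in the inner kinetochore. CENPE, the kinesin of the outer kinetochore, was at 41.6 and 17.8, and its change of −1.18 became −0.26 with the trends removed. CENPT was the 1 gene called higher, at 10.1 and 21.7 (1.03 and 0.35). Mitotic kinesins had 5 of 14 genes lower as measured and 0 with the trends removed. The list of cytokinesis genes with the Aurora and Polo kinases had 4 of 23 and 0, and that of the spindle checkpoint and anaphase-promoting complex 4 of 24 and 0.

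**Figure D3:**
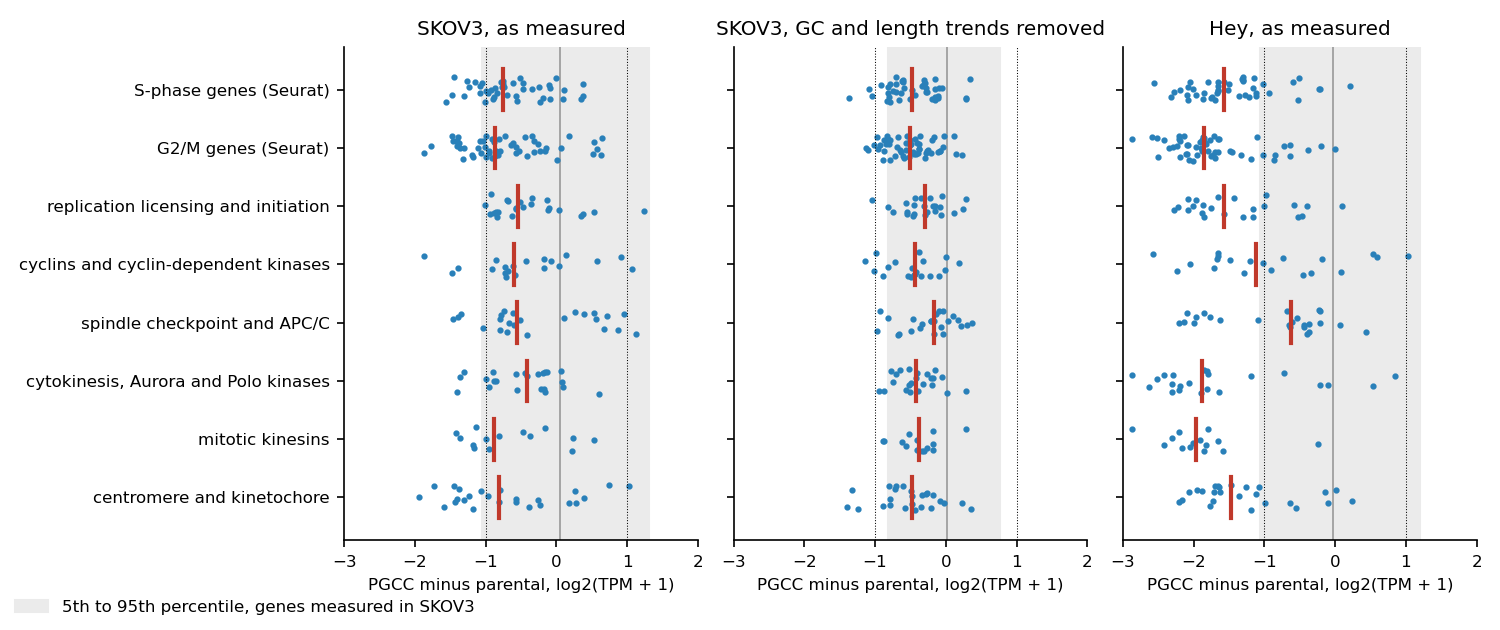
Each blue point is a gene of a cell-division list, placed by its difference between PGCCs and parental cells in log2(TPM + 1), with red bars at the list medians and grey bands from the 5th to the 95th percentile of the genes measured in SKOV3. The medians of the S-phase and G2/M lists sit at −0.76 and −0.86 as measured in SKOV3, at −0.48 and −0.51 with the trends removed, and at −1.57 and −1.86 in Hey.

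Inhibitors of the cyclin-dependent kinases were not called. The list had 0 calls among 5 measured genes on either scale, with CDKN1B at 18.1 and 11.8 and CDKN2C at 26.7 and 22.1. RB1, the retinoblastoma gene that restrains entry into S phase, was at 90.9 and 38.5 (−1.22 and −0.61), and E2F8 at 16.3 and 7.29 (−1.06 and −0.92). The cyclin gene CCND1 was at 92.1 and 81.7, a change of −0.17 as measured and −1.14 with the trends removed. Of 28 measured targets of p53, 2 were higher as measured and 0 with the trends removed, with a median of −0.05 on the measured scale and −0.11 on the adjusted one. GADD45A, a growth arrest gene, was at 109 and 74.5 (−0.54 and −1.09).

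Repair and survival genes were called mostly on the measured scale. Of 33 genes of homologous recombination and the Fanconi pathway, 5 were lower and 1 higher as measured, and 0 were called with the trends removed. FANCM, a DNA translocase, had the largest drop, at 9.10 and 2.39 (−1.57 and −0.93). In the BCL2 family, which sets the threshold of apoptosis, 4 of 16 measured genes were higher as measured and 0 with the trends removed. Of all genes, 11.1% were higher as measured. BOK was at 11.1 and 35.3 (1.58 and 0.59), BAD at 13.3 and 33.4 (1.27 and 0.26), and BAK1 at 20.8 and 44.7 (1.07 and 0.38). BCL2, the founding survival member, was lower on both scales, at 4.76 and 1.17 (−1.41 and −1.21), though at these low levels its change was −0.66 with a pseudocount of 5. MCL1, the most abundant member, was at 341 and 201 (−0.76 and −0.58), and the median of the family was 0.59 as measured and −0.18 with the trends removed.

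Microtubule genes, which code for the target of paclitaxel, had a tubulin median of 0.64 as measured and 0.06 with the trends removed. As measured, 4 of 15 tubulins were higher and 1 was lower, set beside 11.1% and 5.87% of all genes. With the trends removed 0 were called. TUBB3, the beta-tubulin typical of neurons, was at 42.8 and 87.8 (1.02 and 0.18), and TUBB2A was at 19.9 and 49.5 (1.27 and 0.75). The abundant tubulins TUBA1B (3207 and 3305) and TUBB (1352 and 1551) stood at close levels. Among microtubule-associated proteins, CLIP2 was higher on both scales (1.96 and 1.11), MAP1S was at 7.14 and 29.9 (1.93 and 0.97), and STMN1, which takes tubulin out of polymers, was at 1187 and 646 (−0.88 and −0.65).

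Secreted inflammatory factors gave a small and uneven picture in SKOV3. IL6, the cytokine that signals through gp130 and STAT3, was at 10.5 and 28.8 TPM, with 19.2 for the daughter clone, a change of 1.37 as measured and 1.54 with the trends removed. It was the 1 member of the 18 measured genes of the IL6 family and STAT3 pathway that was higher on both scales. IL6ST, which codes for gp130, was at 17.8 and 28.0 (0.63 and 1.28), STAT3 at 62.3 and 110 (0.81 and 0.63), and IL6R at 1.47 and 3.38 (0.82 and 0.35). IL11, a relative of IL6, was at 1.35 and 0.721 (−0.45 and −1.37). Of 14 measured genes of the IL1 family, 1 was higher as measured and 0 with the trends removed, with IL1A at 99.3 and 77.6, IL1B at 13.5 and 9.23, and IL18 at 125 and 83.2. Of 12 measured chemokines and colony-stimulating factors, 0 were higher and 1 was lower as measured. The neutrophil attractants CXCL8 (191 and 179) and CXCL1 (109 and 121) stood at close levels, and so did CSF2 (1.05 and 0.870). KITLG, the ligand of the receptor KIT, was lower on both scales, at 34.4 and 9.47 (−1.76 and −1.13). On the adjusted scale CCL20 (12 and 15.9) passed 2-fold upward at 1.26 and CXCL2 (57.7 and 48.7) downward at −1.12.

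NF-κB genes were the group whose call depended most on the scale among the inflammatory lists. Of 24 measured subunits, targets and feedback inhibitors, 8 were higher as measured, against 11.1% of all genes, and 1 with the trends removed. The median was 0.75 and 0.07. The gene that kept its call was SOD2, the mitochondrial superoxide dismutase, at 75.3 and 165 (1.12 and 1.19), with 266 in the daughter clone. TNFAIP2 was at 94.5 and 317 (1.74 and 0.89), NFKB2 at 8.55 and 25.5 (1.47 and 0.61), and BCL3 at 5.10 and 17.6 (1.61 and 0.58). The adhesion receptor gene ICAM1 was at 0.282 and 2.49, and it passed the limit only through the PGCC library. Of 22 immediate-early genes, 3 were higher as measured (CCN1, JUNB and FOS) and 0 lower, while with the trends removed CCN1 alone was higher and JUND, DUSP5 and KLF4 were lower. FOS was at 65.4 and 141 (1.10 and 0.34), JUNB at 29.4 and 68.9 (1.20 and 0.19) and EGR1 at 331 and 367. CCN1 therefore stood apart from the other genes of the list.

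**Figure D4:**
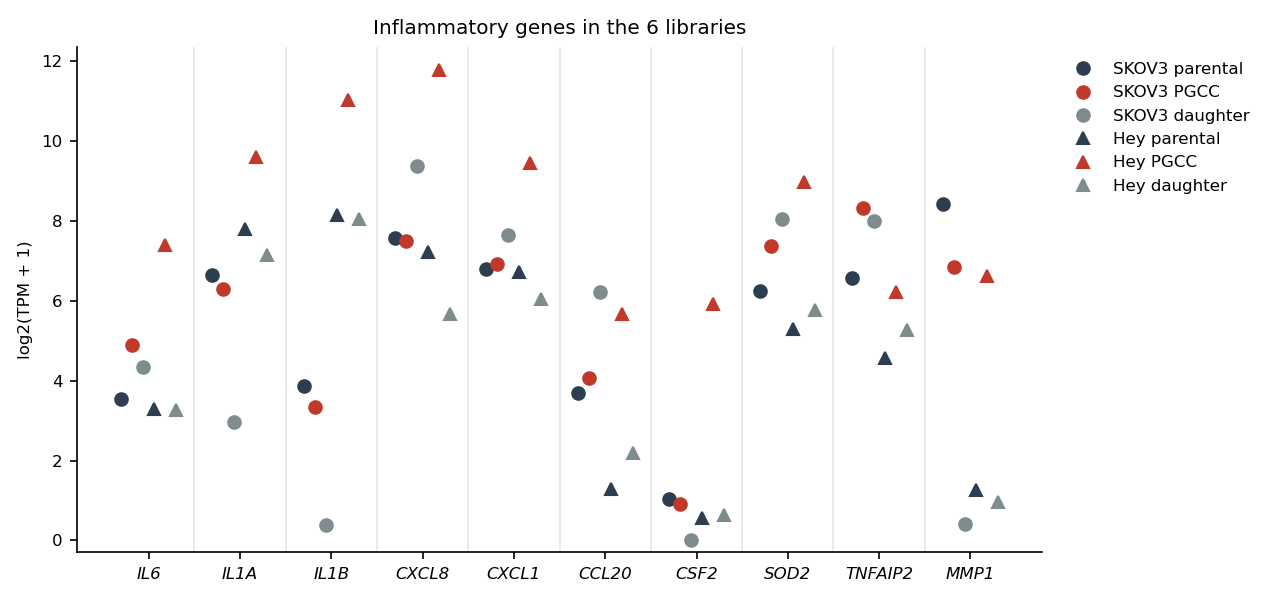
Levels of 10 inflammatory genes as log2(TPM + 1) in the 6 libraries, 1 point each, with circles for SKOV3, triangles for Hey, and parental cells, PGCCs and daughter clones in dark, red and grey. In SKOV3 the PGCC point lies above the parental point for IL6 (28.8 against 10.5) and SOD2 (165 against 75.3) and beside it for CXCL8 (179 against 191), while in Hey it lies above the parental point for all 10 genes.

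Interferon-stimulated genes had 2 of 37 measured genes higher and 2 lower as measured, and 1 higher and 1 lower with the trends removed. As measured, neither share exceeded that of all genes, 11.1% and 5.87%. ISG15, a ubiquitin-like protein, was at 4.19 and 16.7 (1.77 and 0.82) and the membrane protein IFITM3 at 558 and 1352 (1.27 and 0.38). IFI44 (22.6 and 8.18) and OAS1 (5.69 and 2.10), a sensor of double-stranded RNA, were lower. B2M, the invariant chain that every MHC class I molecule needs at the cell surface, was at 1263 and 420 TPM (−1.59 and −1.10). B2M was the 1 gene of 18 measured in antigen presentation that was lower on both scales.

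The wider list of factors that senescent cells secrete had 3 of 35 measured genes higher and 2 lower as measured, and 2 higher and 2 lower with the trends removed. The measured shares were near or below the 11.1% and 5.87% of all genes. Beside IL6, the carrier protein gene IGFBP6 was at 102 and 330 (1.68 and 0.73), and IGFBP3 stood at 404 and 403. MMP1, the interstitial collagenase, was at 344 and 114 (−1.59 and −1.03) and at 0.342 in the daughter clone. MMP2, a gelatinase, was at 19.5 and 8.16 (−1.16 and −1.61), and MMP7, matrilysin, at 265 and 99.7 (−1.40 and −0.94). Their inhibitor TIMP2 was at 447 and 494. Of the 9 measured metalloproteinases and TIMPs, 3 were lower and 2 higher as measured, and 2 lower and 0 higher with the trends removed.

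Replication-dependent histone mRNAs normally lack poly(A) tails, so their level in a library also depends on how RNA was selected, which is not given in the sources used here. Of the 68 clustered histone genes in the table, 24 were measured, 12 of them only through the PGCC library and 1 only through the parental library. Those 12 had to stand higher in PGCCs, so the counts over the list are a description of what passed. As measured 14 were called higher and 0 lower, and with the trends removed 7 higher and 1 lower. The 11 genes that reached 1 TPM in both libraries had a median change of 1.17 as measured and 0.73 with the trends removed. H2BC11 was at 1.23 and 9.98 (2.30 and 2.25), H2BC5 at 5.43 and 15.8 (1.39 and 1.26) and H2AC6 at 2.40 and 8.11 (1.42 and 1.84). The linker histone gene H1-2 (11.9 and 28.2, 1.17 and 0.68) was called as measured alone. H4C14, listed at 0 in parental cells, was at 2.76 in PGCCs. The summed TPM of the list was 68.2 and 214. Of 15 measured nuclear lamina and high-mobility-group genes, 2 were lower and 0 higher as measured, against 5.87% and 11.1% of all genes. With the trends removed 1 other gene was lower, against 2.89%, and 0 were higher. The medians were −0.46 and −0.37, and 5 of the 15 stood above 0 as measured. The 2 were HMGN2, a nucleosome-binding protein, at 2491 and 1174 (−1.08 and −0.91), and LBR, the lamin B receptor, at 81.2 and 38.1 (−1.07 and −0.63). HMGB1, at 1631 and 1010.0 (−0.69 and −0.17), was not called on either scale.

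In the list of epithelial and mesenchymal genes, 7 of 23 were higher and 1 lower as measured, and 1 higher and 2 lower with the trends removed. The median of 0.52 as measured was −0.25 among the genes reaching 5 TPM, and 3 of the 23 had passed the limit only through the PGCC library. CDH1, the E-cadherin of epithelial junctions, kept its call, though from a low level of 1.47 to 4.35 (1.12 and 1.06). TWIST1, a factor of the mesenchymal state, was lower on both scales, at 11.2 and 5.10 (−1.0 and −1.57), and its relative TWIST2 was at 8.80 and 5.66 (−0.56 and −1.31). VIM, the mesenchymal intermediate filament, was at 2889 and 2004 (−0.53 and −0.73), and the matrix protein gene FN1 at 27.2 and 14.5 (−0.86 and −0.93).

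Matrix and adhesion genes were called mostly on the measured scale. Of 29 measured collagens, laminins and matricellular genes, 4 were higher and 0 lower as measured. With the trends removed none of the 4 was called, and 1 other gene was higher and 1 lower. The share higher as measured was not far from the 11.1% of all genes. LAMA5, a laminin chain of basement membrane, was at 12.3 and 48.0 (1.88 and 0.89), COL18A1 at 56.3 and 135 (1.24 and 0.14) and SPARC at 19.7 and 45.5 (1.17 and 0.62). Of 17 measured integrins, 4 were higher as measured, against 11.1% of all genes, and 0 with the trends removed. Among the 4 were ITGB4, which anchors hemidesmosomes (62.7 and 151, 1.26 and 0.33), and ITGB5 (61.3 and 144, 1.22 and 0.78). ITGB1, the most abundant integrin gene here, was at 1042 and 617 (−0.75 and −0.25).

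Among cytoskeletal genes, FLNA, which crosslinks actin, was at 265 and 719 (1.44 and 0.56), ACTG1 at 1812 and 3697 (1.03 and 0.55) and ACTB at 2080 and 1944 (−0.10 and −0.67). TAGLN, a calponin-like actin binder, was at 53.7 and 26.7 (−0.98 and −1.64). In the list of the Hippo pathway and its TEAD targets, 3 of 20 genes were higher as measured and 2 with the trends removed. CCN1 was called on both scales, and ANKRD1, another YAP target, was at 3.02 and 6.21 (0.84 and 1.25). YAP1 itself was at 119 and 97.6.

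Genes of sterol synthesis were called higher more often than the 11.1% of all genes, as measured. In cholesterol synthesis, 8 of 24 genes were higher and 1 lower as measured, and 1 higher and 0 lower with the trends removed, with medians of 0.42 and 0.28. LSS, which closes the sterol rings to make lanosterol, was higher on both scales, at 10.4 and 37.2 (1.75 and 1.10). MVD, a mevalonate enzyme, was at 10.2 and 34.5 (1.67 and 0.72), DHCR7, which catalyses a last step, at 17.4 and 42.0 (1.22 and 0.57), and SREBF2, the factor that controls the pathway, at 20.2 and 51.2 (1.30 and 0.75). STARD4, a sterol carrier, was at 19.2 and 6.38 (−1.46 and −0.93). In fatty acid synthesis 2 of 14 genes were higher as measured, FASN (1.99 and 0.85) and SREBF1 (2.69 and 6.63, 1.05 and 0.13), and 0 with the trends removed.

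Of 20 measured glycolytic genes, 3 were higher as measured, a share not far from the 11.1% of all genes, and 1 with the trends removed. SLC2A1 was the gene on both scales, and ALDOA, aldolase, was at 590 and 1265 (1.10 and 0.31) and PFKL, the liver phosphofructokinase, at 23.8 and 61.0 (1.32 and 0.35). GAPDH, often used as a reference gene, was at 2381 and 3639 (0.61 and 0.08), and LDHA at 2776 and 2487 (−0.16 and 0.06). Among 24 measured hypoxia genes 3 were higher and 1 lower as measured, and SLC2A1 was the 1 gene higher with the trends removed. VEGFA, the vascular growth factor, was at 52.2 and 90.3 (0.78 and 0.41).

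Targets of NRF2, the factor of the oxidative stress response, held 3 genes that were higher on both scales among 26 measured. AKR1C1 was at 42.9 and 108 (1.32 and 1.66) and AKR1C2 at 16.1 and 35 (1.07 and 1.32), a pair of aldo-keto reductases of near-identical sequence, so that their reads cannot be told apart with certainty. TKT, the transketolase of the pentose phosphate pathway, was at 129 and 430 (1.73 and 1.05). HMOX1, heme oxygenase, was at 11.4 and 30.5 (1.34 and 0.76). FTH1, the ferritin heavy chain and the most abundant gene of the list, was at 18640 and 21360 (0.20 and −0.09). As measured 7 of the 26 were higher, set beside 11.1% of all genes, and 0 were lower on either scale.

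Other stress genes gave calls as measured alone. Of 28 genes of the unfolded protein and integrated stress responses, 4 were higher and 1 lower as measured and 0 were called with the trends removed. The measured shares were not far from the 11.1% higher and 5.87% lower of all genes. CHAC1, which degrades glutathione, was at 1.79 and 8.98 (1.84 and 1.00, the latter just under 2-fold), while the chaperone gene HSPA5 was at 504 and 477. Of 21 measured heat shock genes, 4 were higher as measured, set beside 11.1% of all genes, and 0 with the trends removed. HSPB1 changed by 1.95 and 0.95, HSPA1A was at 73.9 and 157 (1.08 and 0.35), and HSP90AA1 was at 3119 and 1983 (−0.65 and −0.34). In the list of lysosomal and autophagy genes 6 of 44 were higher and 2 lower as measured, shares not far from those of all genes. ASAH1, acid ceramidase, was the 1 gene called with the trends removed, at 167 and 54.9 (−1.59 and −1.16), and CTSD, cathepsin D, was at 176 and 394 (1.16 and 0.20).

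Among genes of protein synthesis and respiration, the shares called higher as measured were near or below the 11.1% of all genes. Of 83 measured cytosolic ribosomal protein genes, 9 were higher and 1 lower as measured, and 2 higher and 1 lower with the trends removed, with medians of 0.27 and 0.18. RPL8 was at 133 and 473 (1.82 and 1.02), RPLP1, of the ribosomal stalk, at 272 and 688 (1.33 and 1.10), and RPL22L1 changed by −1.76 and −1.15. The 78 mitochondrial ribosomal protein genes had medians of −0.04 and −0.03. Of 80 measured nuclear genes of oxidative phosphorylation, 7 were higher and 2 lower as measured, and 1 of each with the trends removed. COX7A1, a subunit of cytochrome oxidase, was at 6.08 and 29.6 (2.11 and 1.19), and COX6C at 274 and 95.9 (−1.51 and −1.09). The 13 protein-coding genes of the mitochondrial genome had 0 calls on either scale, with medians of −0.07 and 0.15. Among 32 proteasome genes PSMD12 alone was called, at 69.3 and 21.8 (−1.63 and −1.12).

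ABCB1, the efflux pump that carries paclitaxel, was under the limit in both libraries, at 0.329 and 0.168, and stood at 231 in the daughter clone. Of 11 measured drug transporters 3 were higher as measured, set beside 11.1% of all genes. ABCG2, at 0.605 and 1.64, was the 1 gene called with the trends removed (0.72 and 1.26). It was 1 of 2 members that passed the limit only through the PGCC library, so it had to stand higher as measured. With a pseudocount of 5 its change was 0.24. POU5F1, the pluripotency factor OCT4, was at 2.86 and 8.13 (1.24 and 1.12) and at 7.22 in the daughter clone, and it has processed pseudogenes that share its sequence. NANOG was at 0.0735 and 0.0179, and SOX2 was listed at 0 in both. The surface marker genes CD44 (279 and 179) and CD24 (513 and 355) were not called on either scale. SOX4 was at 42.2 and 22.5 (−0.88 and −1.19). Of 13 measured genes in the DNA methylation list, MBD3 alone was called as measured, at 6.37 and 21.9 (1.64 and 0.62), and DNMT1 stood at 89.0 and 91.7. Of the 54 genes that the study names and the table holds, 32 were measured, and as measured 2 were higher (IL6 and POU5F1) and 2 lower (BCL2 and MMP1), set beside 11.1% and 5.87% of all genes. With the trends removed 2 were higher (the same pair) and 4 lower (BCL2, MMP1, SOX4 and COL1A1). COL1A1 was near the limit, at 2.35 and 1.33 (−0.52 and −1.38). With a pseudocount of 5 the measured changes of POU5F1 and BCL2 were under 2-fold.

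**Figure D5:**
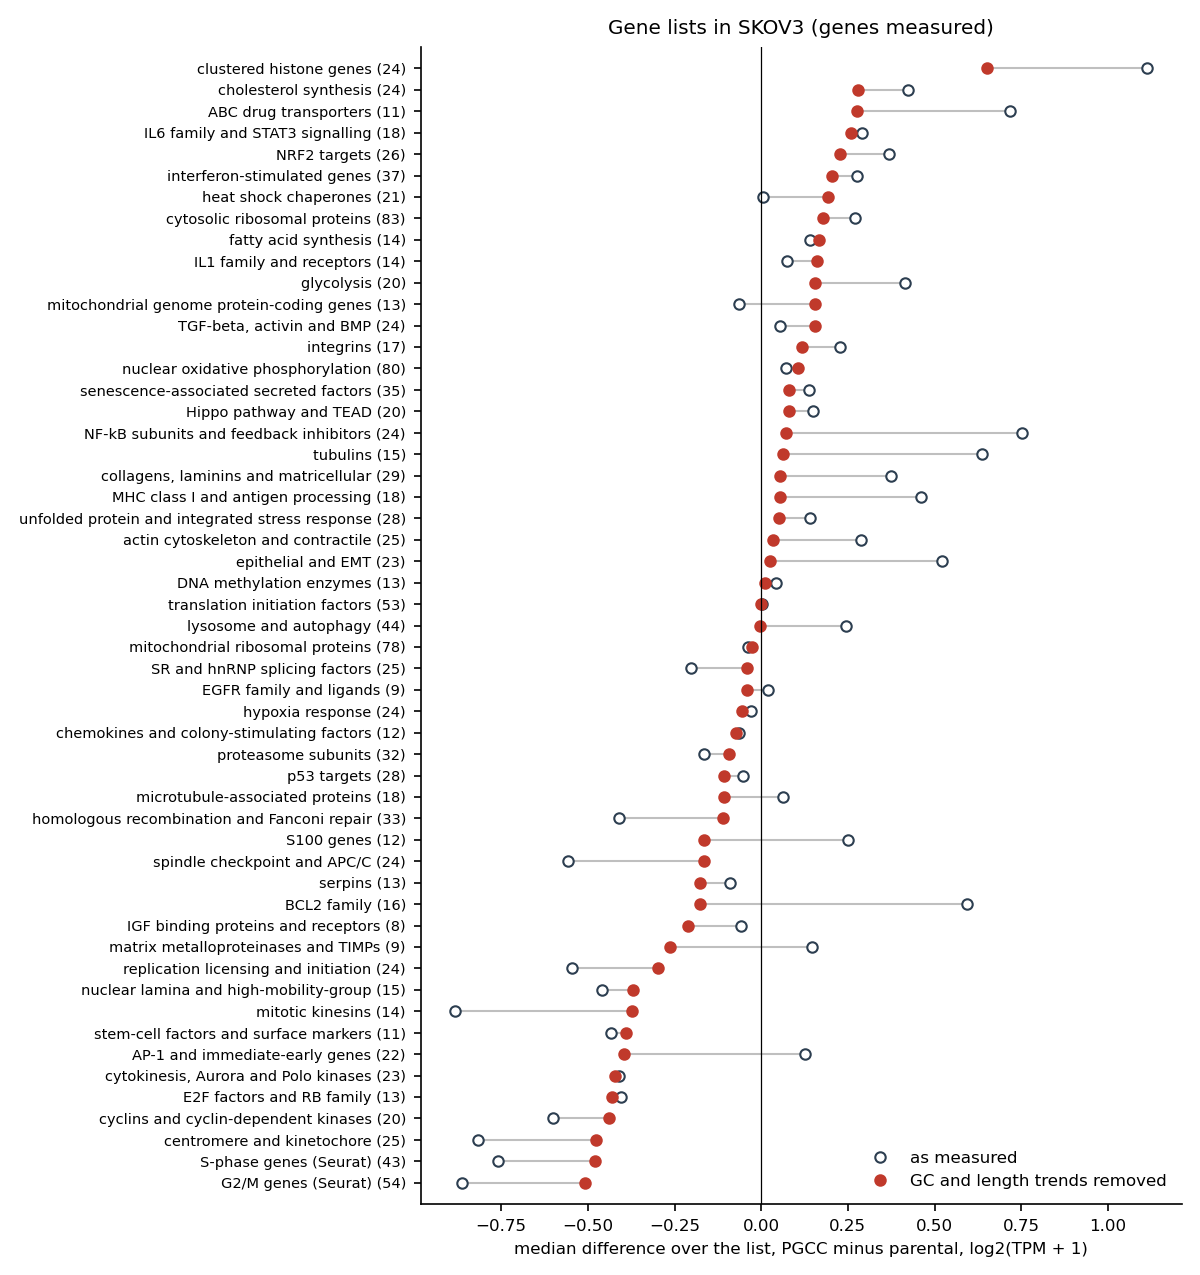
Median difference between SKOV3 PGCCs and parental cells in log2(TPM + 1) for each gene list with at least 8 measured genes, as measured (open circles) and with the GC and length trends removed (filled circles), with the number of genes in brackets. Cell-division lists lie below 0 on both scales, the G2/M list at −0.86 and −0.51, and the NF-κB list goes from 0.75 to 0.07.

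Small RNA genes showed the widest differences and the least certain ones. Of 31 measured small nuclear RNA genes in the annotation, nearly all were called, and 15 were higher and 15 lower, mostly with a listed value of 0 in 1 of the libraries. These transcripts are too short for a standard RNA library and occur in many copies, so their values were not read further. The snRNA class had 96.8% of its genes called and the small nucleolar RNAs 59.4%, against 14.9% of the protein-coding genes and 11.6% of the long non-coding RNAs. With the trends removed, 3.74% of the protein-coding genes and 8.96% of the long non-coding RNAs were called. The 1659 measured symbols with no match in the annotation had 27.4% called and have no value on the adjusted scale.

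Set beside the Hey pair as measured, the SKOV3 PGCCs had smaller median differences in the division genes and the senescence-associated secreted factors on either SKOV3 scale. In the NF-κB list this depended on the SKOV3 scale. In Hey, 14340 genes were measured, of which 10.6% were higher and 5.77% lower in PGCCs, close to the shares in SKOV3. Of the 188 cell-division genes measured in Hey, 130 were lower (69.1%) and the median change was −1.61, against 23.8% and −0.62 in SKOV3. With the trends removed, the SKOV3 values were 5.29% and −0.42. TOP2A changed by −2.59 in Hey against −1.77 in SKOV3, whereas CDK1 changed by −1.66 against −1.87. IL6 changed by 4.12 in Hey, from 8.74 to 168, against 1.37 in SKOV3. CXCL8 went from 149 to 3488 in Hey, IL1B from 284 to 2105 and CSF2 from 0.481 to 59.4, and none of these genes was called as measured in SKOV3. Senescence-associated secreted factors had a median of 1.69 in Hey, with 24 of 38 genes higher. In SKOV3 it was 0.14 as measured and 0.08 with the trends removed. The NF-κB list had 8 genes higher in each line as measured, and its median was 0.65 in Hey against 0.75. With the trends removed, 1 of its genes was higher in SKOV3 and the median was 0.07. The median of the IL6 family and STAT3 pathway was 0.33 in Hey against 0.29, or 0.26 with the trends removed. Targets of p53 had a median of 0.81 in Hey, with 10 of 30 higher, against −0.05. The 13 mitochondrial genes were all higher in Hey, with a median of 2.28, against −0.07. The lines have 1 library each per state, so these differences between lines were not tested. The title of the SKOV3 PGCC library gives day 7 and that of the Hey PGCC library day 3, though both treatment labels give 3 days. If the titles hold, line and recovery time cannot be told apart here.

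The genes furthest apart in SKOV3 shared their direction with Hey only in part. Of the 15 genes in the upper set 14 were measured in Hey, and 5 of them were also at least 2-fold higher there (H2BC12, BCL2L2-PABPN1, NABP1, SPANXA2 and CPA4), against 10.6% of all genes in that line, while CCN1 and UMPS were lower. Of the 15 genes in the lower set 14 were measured, and 4 were also lower in Hey (MARCKS, HES1, POLA2 and ARL6IP1), against 5.77% of all genes, while 4 were higher (SIK1, AVIL, C18orf32 and EIF3L). HES1 went from 88.1 to 5.14 in Hey, a change of −3.86.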

How the data were processed

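RNA of 6 libraries, parental cells, PGCCs and daughter cells of SKOV3 and Hey, was sequenced with 1 library per group. The submitters' processing notes name fastp, Salmon 0.14.1 and the hg38 build, and the authors deposited TPM values per gene symbol. How transcripts were summed to symbols, with which annotation release, and any bias option of Salmon are not given in the sources used here. The study's methods give a range of mapped reads over its libraries, but the files used here hold no read counts, so the counting error of a gene is unknown. A bias correction applied or left out upstream could change values along GC content.

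The deposited TPM values were used as they are. Genes reaching a TPM of 1 in either SKOV3 library were kept, a pseudocount of 1 was added, and differences of log2 values were taken. With 1 library per group no test was run, and a gene was called at a 2-fold difference. GC content and length are medians over a gene's GENCODE 44 transcripts (GRCh38, the same build as hg38), joined by symbol, 162 of them by an older symbol. Trends with GC content and log length were subtracted by lowess (fraction 0.3, 2 passes), in Python 3.11.15 with numpy 2.4.6, pandas 2.3.3 and statsmodels 0.14.6. The steps were tested on simulated data.

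Gene groups are 57 lists written by hand or matched by symbol, plus 5 marker lists. The members and lists were chosen with earlier results of these data known. The genes named are the 15 highest and 15 lowest protein-coding genes reaching 10 TPM that were called on both scales, up to 4 of the most changed and of the most abundant genes of a list with those called on 1 scale, genes that the study names, the markers, and genes at the TPM limit. Not every gene the rule allows is printed. Alternatives were pseudocounts of 0.1 and 5, no filter and a limit of 5 TPM, median-ratio scaling, quantile normalization, mitochondrial genes left out, protein-coding genes only, removal of the GC trend alone, and 1.5-fold and 3-fold limits.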

Additional observations from a re-analysis of the deposited data

Results flagged for a closer look

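These genes were called in 1 direction on both scales in SKOV3 and were at least 2-fold the other way in Hey. With 1 library per group the difference between the lines was not tested. The PGCC libraries may also differ in recovery time, since their titles give day 7 for SKOV3 and day 3 for Hey. CCN1, the matricellular protein, changed by 3.42 in SKOV3 (3.41 with the trends removed) and by −2.11 in Hey, where it went from a TPM of 459 to 106. UMPS, of uridine nucleotide synthesis, changed by 2.31 in SKOV3 and by −1.74 in Hey. The ribosomal protein gene RPL8 changed by 1.82 and −1.11. SIK1 changed by −3.30 in SKOV3 and by 1.59 in Hey, where parental cells were listed at 0 and PGCCs were at 2.02. AVIL changed by −2.95 and 1.76, C18orf32 by −2.82 and 1.09, and the eIF3 subunit gene EIF3L by −1.77 and 1.15. The collagenase gene MMP1 changed by −1.59 in SKOV3, from 344 to 114, and by 5.36 in Hey, from 1.41 to 98.1. The gelatinase gene MMP2 changed by −1.16 and 1.30, and the metallothionein gene MT1X by −1.04 and 1.63.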

How the results depend on the processing

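The number of genes called depended on the settings. Genes higher in PGCCs numbered 1700 as reported, 613 with a pseudocount of 5, 356 with the GC trend removed, 330 with the GC and length trends removed, 3818 at a 1.5-fold limit and 344 at a 3-fold limit. Genes lower numbered 896 as reported, 1382 with a pseudocount of 0.1, 323 with one of 5, 381 with the GC trend removed, 394 with the GC and length trends removed, 541 among protein-coding genes only, 2715 at 1.5-fold and 182 at 3-fold. Of the called genes 65.5% were higher as reported, 55.9% after quantile normalization, 48.3% with the GC trend removed and 45.6% with both trends removed. The correlation with GC content was 0.73 as reported and 0.62 with no filter. List medians moved in few cases. That of the BCL2 family was −0.15 with the GC trend removed and −0.18 with both removed, and that of the NF-κB list 0.10 and 0.070. With a TPM of at least 5, which leaves fewer genes, the median was −0.25 for the epithelial and EMT list, −0.47 for metalloproteinases and TIMPs, −0.75 for metallothioneins and −0.16 for ABC drug transporters. That of the histone genes was 1.76 with a pseudocount of 0.1 and 0.43 with one of 5. The cause of these shifts was not tested, beyond what each setting does by construction. No named gene past 2-fold changed sign under any alternative, but many lost the call. Of 128 named genes called as measured, 62 were under 2-fold with both trends removed and 25 with a pseudocount of 5, which shrinks genes at low levels. Of the 66 called on both scales, 13 were under 2-fold with that pseudocount, among them BCL2 (−0.66) and H2AC6 (0.82), while SIK1 (−2.17) and AVIL (−1.50) were smaller and still past it. No paired analysis was possible because each SKOV3 group has 1 library, so the groups share fewer than 2 replicate numbers. Without replicates or read counts per gene, none of the differences can be set against an error.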

Other observations

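Several other gene groups were measured in the SKOV3 pair. The calcium-binding S100 genes had 0 calls among 12 measured genes on either scale, with S100A4 at 2427 and 4816 TPM in the parental and PGCC libraries (0.99 as measured and 0.79 with the trends removed) and S100A6 at 6586 and 9029 (0.46 and −0.37). Both were lower in the daughter clone, at 304 and 733. Of 13 measured serpins, SERPINB2, an inhibitor of plasminogen activators, was the 1 gene called, from a low level of 0.542 to 2.61 (1.23 and 1.46). It passed the limit only through the PGCC library, and it changed by 7.44 in Hey. In the TGF-β, activin and BMP list, ID3 (42.6 and 96.7, 1.16 and 0.63) and ID4 (31.2 and 15, −1.01 and −0.60), inhibitors of basic helix-loop-helix factors, were called in opposite directions as measured, and neither was called with the trends removed. The EGFR family and its ligands had 0 calls among 9 measured genes, with EGFR at 67.1 and 71.5 and NRG1 at 51.5 and 34.2. Metallothionein MT2A was at 768 and 1195 (0.64 and 0.28), whereas MT1X was lower on both scales, at 30.7 and 14.47 (−1.04 and −1.27). Among 25 splicing factors of the SR and hnRNP families HNRNPU alone was called as measured, at 407 and 165 (−1.30 and −0.79).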
